A study of Caenorhabditis elegans with 9 samples.

Results

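Intestines of worms grown in low heme were compared with intestines of worms grown in a middle dose, across all genes of a deposited count table. The members are the 3 libraries labelled 2 µM heme and the 3 labelled 20 µM heme, 6 of the 9 libraries of the study, chosen by their labelled dose. All were made from Caenorhabditis elegans strain N2, the wild type, which was synchronised at the first larval stage and fed the given heme dose in liquid mCeHR2 for 4 days at 20 °C. Each library pooled the dissected intestines of 3 adults, and cDNA was copied with SMARTScribe reverse transcriptase and amplified by PCR before Illumina sequencing. No label names separate cultures behind the replicates, and every p-value below therefore reflects the spread among libraries, which may be technical.

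C. elegans cannot make heme and takes all of it from its food through the intestine. Heme is the cofactor of catalases, peroxidases, cytochromes P450 and the cytochromes of the respiratory chain. The intestine is also the worm's main tissue for digestion, fat storage, yolk synthesis and the chemical modification of foreign compounds.

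The libraries held between 44385011 and 72960600 counts over 21776 genes, and 13434 genes had enough counts to be tested. Levels are given as CPM, the counts of a gene for every 1000000 counts of its library after scaling for library composition, always in the order of replicates 1, 2 and 3. Replicates 2 and 3 of 2 µM heme were near-identical: none of 3898 genes of 10 CPM or more differed over 2-fold between them, against 12.12 to 63.26% of such genes in the other pairs of libraries of 1 dose. Their counts differed by more than sampling noise, so they were kept as 2 libraries, and results are also given with them summed to 1. Replicate 1 of 20 µM heme stood apart, with 55.74 and 63.26% of genes over 2-fold from replicates 2 and 3, which differed that far in 39.1%. The share of ribosomal RNA was 2.301, 35.3 and 41.97% at 20 µM against 3.57, 14.1 and 14.7% at 2 µM. Shares of counts given below are of all counts, with this ribosomal RNA included.

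The label of the tissue was checked against 21 intestinal marker genes, which took 3.08, 2.86 and 2.87% of all counts at 2 µM and 4.04, 2.96 and 2.53% at 20 µM. Levels of ges-1, a gut esterase, stood at 74.4, 97.8 and 92.7 CPM at 2 µM against 74.0, 173 and 112 CPM at 20 µM. This gene was present in every library and the doses overlapped.

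Markers of other tissues differed between libraries. Sperm markers took 0.156, 0.165 and 0.163% of counts at 2 µM and 0.00890, 0.0113 and 0.0338% at 20 µM. Pharynx markers took 0.00280, 0.00259 and 0.00240% at 2 µM and 0.127, 0.242 and 0.0139% at 20 µM. Neither pair of ranges overlapped. Cuticle and hypodermis markers took 7.92% of replicate 1 at 2 µM and between 0.0838 and 0.456% of the other 5 libraries. Body wall muscle markers likewise took 0.255% of that library and at most 0.0384% elsewhere. In such bulk samples, fewer cells of a type and less RNA per cell cannot be told apart.

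**Figure D1:**
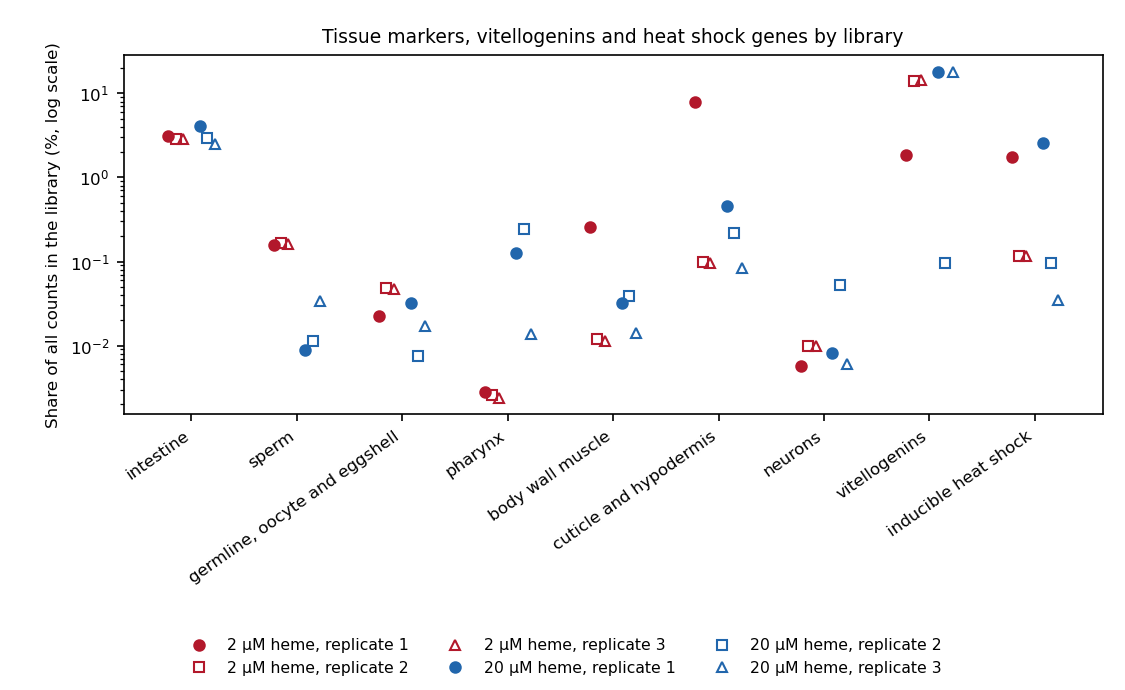
Share of all counts in each library (%, log scale) taken by lists of tissue markers, by vitellogenins and by inducible heat shock genes. Each point is 1 library, red for 2 µM and blue for 20 µM heme, with shapes for replicates. Sperm markers are higher at 2 µM (0.156 to 0.165%) than at 20 µM (0.00890 to 0.0338%), pharynx markers are lower, and vitellogenins and heat shock genes follow single libraries rather than the dose.

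With edgeR's quasi-likelihood test, 8 genes rose at 2 µM heme (0.0596% of the genes tested) and 2 fell (0.0149%). Among them were enzymes of nitrogen, sulfur and conjugation chemistry and 1 gene of the pud cluster. The smallest p was that of cysl-2, a cysteine synthase-like enzyme that belongs to the response to sulfide and cyanide, on chromosome II at 14492874 to 14494451. For cysl-2, the libraries held 68.9, 86.3 and 80.4 CPM at 2 µM and 1.68, 1.47 and 1.504 CPM at 20 µM. It rose by 5.66 ± 0.47 on the log2 scale (SE, n = 3 libraries per dose, edgeR adjusted p = 0.0113). Replicates differed little beside the difference between the doses. A glutamine synthetase gene, gln-1, lies on chromosome X at 6058255 to 6060242. At 2 µM gln-1 had 92.1, 90.5 and 81.0 CPM, and at 20 µM it had 9.42, 5.61 and 6.42 CPM, and it rose by 3.62 ± 0.40 (edgeR adjusted p = 0.0291). The UDP-glucuronosyltransferase gene ugt-16, on chromosome V at 12825024 to 12827442, encodes an enzyme that attaches a sugar to small lipophilic compounds. The level of ugt-16 was 453, 503 and 481 CPM at 2 µM and 31.1, 16.1 and 8.24 CPM at 20 µM. The rise was 4.70 ± 0.59 (edgeR adjusted p = 0.0436).

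A further 3 protein-coding genes, to which no role is given here, rose from near absence. The gene C24D10.5 was counted at 81.8, 62.2 and 62.9 CPM at 2 µM and 0.739, 0.258 and 0.125 CPM at 20 µM (log2 change 7.52 ± 0.76, edgeR adjusted p = 0.0265). Levels of ZK154.1 stood at 70.8, 114.2 and 113.6 CPM at 2 µM against 0.153, 1.096 and 0.407 CPM at 20 µM (log2 change 7.47 ± 0.87, edgeR adjusted p = 0.0368). For F36A2.3, the libraries held 136, 247 and 236 CPM at 2 µM and 1.27, 0.322 and 0.313 CPM at 20 µM (log2 change 8.34 ± 1.01, edgeR adjusted p = 0.0368). In each, the lowest 2 µM library stood far above the highest 20 µM library. These genes lie on chromosomes IV at 5150093 to 5151213, X at 7779577 to 7780607 and I at 8798785 to 8801648.

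Both other genes that rose had 0 counts in all 3 libraries at 20 µM, where 3 counts over the group come to 0.0225 CPM. The gene tbh-1 was counted at 2.303, 1.97 and 1.77 CPM at 2 µM (edgeR adjusted p = 0.0265); this is the tyramine beta-hydroxylase gene on chromosome X at 15500256 to 15504895, known from octopamine neurons and the gonadal sheath. The gene W03D8.9 was counted at 2.92, 7.24 and 8.36 CPM at 2 µM (edgeR adjusted p = 0.0468), on chromosome I at 2784620 to 2786077. Single markers of these tissues did not share 1 direction. Of 9 tested markers of the gonadal sheath, spermatheca and uterus, 2 were higher and 1 lower without overlap, and DESeq2 called 2 higher and 1 lower (1 and 1 with the near-identical libraries summed). The sheath marker lim-7 was seen at 0.801, 0.579 and 0.607 CPM at 2 µM and had 0 counts in every library at 20 µM. The troponin gene tnt-3 stood the other way, at 5.30, 4.76 and 5.50 CPM at 2 µM against 402, 94.6 and 20.8 CPM at 20 µM (DESeq2 adjusted p = 0.00242, 0.0231 with that sum). Of 28 tested neuron markers, 1 was higher and 4 lower without overlap, and DESeq2 called 0 higher and 6 lower (0 and 5 with that sum). Sperm markers were higher, with 44 of 59 tested genes higher in all 3 libraries at 2 µM and 22 called higher by DESeq2 (12 with the near-identical libraries summed), many of them near-identical copies of major sperm protein genes. The part of other tissues in the change of tbh-1 and W03D8.9 was not tested.

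Of the genes that fell, pud-4 lies in a cluster described further on. At 2 µM pud-4 had 0.603, 0.666 and 0.135 CPM, and at 20 µM it had 1292, 823 and 87.6 CPM, a change of -10.61 ± 1.36 (edgeR adjusted p = 0.0442). F43G6.17 is a protein-coding gene on chromosome II at 11802751 to 11803978. The level of F43G6.17 was 0.148, 0.0724 and 0.202 CPM at 2 µM and 5.55, 4.85 and 9.56 CPM at 20 µM, a change of -5.55 ± 0.66 (edgeR adjusted p = 0.0368). All 10 genes were also called by DESeq2, by DESeq2 with the near-identical libraries summed and by DESeq2 without replicate 1 of 20 µM. With limma-voom, tbh-1 (adjusted p = 0.0862) and W03D8.9 (adjusted p = 0.228) were lost, and with DESeq2 size factors in edgeR W03D8.9 was lost (adjusted p = 0.0557). Over all alternatives run, the highest adjusted p was 0.213 for tbh-1 and 0.228 for W03D8.9. With the replicate number as a block, cysl-2 was the 1 gene of the 10 that kept its call (edgeR adjusted p = 0.0426, at most 0.0757 over all alternatives run).

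The number of calls depended on single libraries and on the tool. Without 1 library, edgeR called 3, 0 and 0 genes (replicates 1 to 3 of 2 µM omitted), 210, 0 and 5 (20 µM) and 4, 10 and 1 (400 µM, which share in the estimate of spread). Of these calls, 2, 0 and 0, then 10, 0 and 4, and then 3, 5 and 1 were among the 10 genes. Omitting replicate 1 of 20 µM took the log2 change of C24D10.5 to 8.45, of F36A2.3 to 9.35, of ugt-16 to 5.31 and of pud-4 to -9.91. Omitting replicate 2 of 20 µM took that of ZK154.1 to 8.43 (edgeR adjusted p = 0.0678). With the near-identical libraries summed, edgeR called 0 genes, with 1341 at an unadjusted p under 0.05 and 623 called by DESeq2.

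**Figure D2:**
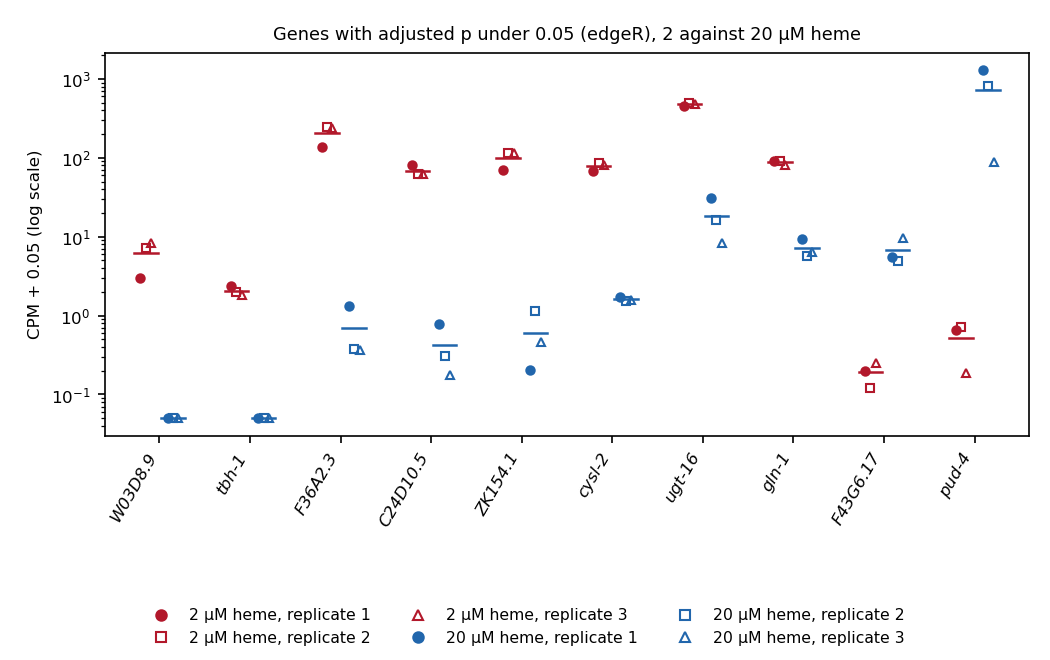
CPM + 0.05 (log scale) in each library for the 10 genes with an edgeR adjusted p under 0.05, ordered by log2 change. Red points are 2 µM and blue points 20 µM heme, shapes are replicates and bars are means of the plotted values. The 3 libraries of 1 dose lie apart from those of the other in every gene shown, and tbh-1 and W03D8.9 lie at the floor of the plot at 20 µM.

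DESeq2's Wald test called 584 genes higher (4.66% of 12521 with an adjusted p) and 349 lower (2.79%) at 2 µM, and 422 (3.23%) and 201 (1.54%) with the near-identical libraries summed. Over all tested genes, 1702 (12.7%) were higher in every library at 2 µM than in any at 20 µM, and 599 (4.46%) were lower in every one. The median log2 change of all tested genes was 0.12. Gene groups below are read against these shares. Genes first named from here on did not pass the edgeR test (adjusted p of 0.0504 or above), and DESeq2's adjusted p is given for most of those it returned one for.

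The widest gaps between doses belonged to a mixed set of genes. In clec-45 the gap between the doses was the widest of those toward higher levels, and the gene encodes a small protein with a C-type lectin domain. The gene clec-45 was counted at 741, 877 and 917 CPM at 2 µM and 1.503, 0.564 and 0.815 CPM at 20 µM (edgeR adjusted p = 0.0504). DESeq2 gave it no adjusted p, and 7.24e-15 with the pair summed. Levels of F43H9.4 stood at 195, 228 and 218 CPM at 2 µM against 0.458, 1.53 and 1.79 CPM at 20 µM (edgeR adjusted p = 0.071). DESeq2 gave it no adjusted p either, and 1.21e-08 with the pair summed. C30G12.10 is annotated as a noncoding RNA. For C30G12.10, the libraries held 274, 126 and 112 CPM at 2 µM and 1.197, 0.242 and 0.313 CPM at 20 µM (edgeR adjusted p = 0.0504, DESeq2 adjusted p = 6.82e-17). The neprilysin-family peptidase gene nep-8 was absent from 2 libraries at 20 µM. At 2 µM nep-8 had 58.2, 109.8 and 103 CPM, and at 20 µM it had 0, 0 and 0.721 CPM (DESeq2 adjusted p = 3.65e-07). The level of cft-1, an ABC transporter gene, was 24.98, 41.7 and 43.8 CPM at 2 µM and 0, 0.338 and 0 CPM at 20 µM (DESeq2 adjusted p = 2.02e-05). The rest of the 12 widest gaps were hrg-2, Y41G9A.10 and F58E6.8 beside genes given above.

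Families of enzymes that conjugate and modify small molecules differed in direction. Of 54 tested UDP-glucuronosyltransferase genes, 14 were higher in every library at 2 µM and 2 lower, while DESeq2 called 12 higher and 1 lower, or 9 and 1 with the near-identical libraries summed. The gene ugt-17 was counted at 145, 174 and 160.2 CPM at 2 µM and 20.9, 27.4 and 12.3 CPM at 20 µM (DESeq2 adjusted p = 2.39e-11). Levels of ugt-12 stood at 723, 270.5 and 257 CPM at 2 µM against 27.8, 14.9 and 5.48 CPM at 20 µM (DESeq2 adjusted p = 1.84e-07). In the opposite direction went ugt-44. For ugt-44, the libraries held 103.7, 46.1 and 46.5 CPM at 2 µM and 548, 136 and 503 CPM at 20 µM (DESeq2 adjusted p = 0.00105). The median of the 54 log2 changes was 0.26 against 0.12 over all genes, and it changed sign without replicate 1 of 2 µM or replicate 3 of 20 µM, to -0.13 at the lowest.

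Among 41 tested glutathione transferases, 8 were higher and 2 lower without overlap, and DESeq2 called 4 higher and 1 lower (3 and 0 with the pair summed). The most abundant of those named was gsto-1, of the omega class. At 2 µM gsto-1 had 905, 1560 and 1520 CPM, and at 20 µM it had 135, 32 and 97.8 CPM (log2 change 3.91 ± 0.65, DESeq2 adjusted p = 8.79e-08). The gene gst-17 was counted at 1.54, 16.04 and 14.3 CPM at 2 µM and had 0 counts at 20 µM (DESeq2 adjusted p = 1.86e-07). The kappa-class gene gstk-1 was lower. The level of gstk-1 was 2.86, 4.85 and 5.90 CPM at 2 µM and 34.5, 9.64 and 8.30 CPM at 20 µM (DESeq2 adjusted p = 0.0247, 0.0883 with the pair summed). Of 28 tested short-chain dehydrogenases, 2 were higher and 5 lower without overlap, and DESeq2 called 0 higher and 4 lower (0 and 2 with the pair summed). One of the lower genes was dhs-26, with little spread. The gene dhs-26 was counted at 18.5, 21.5 and 21.4 CPM at 2 µM and 65.2, 84.2 and 71.5 CPM at 20 µM (log2 change -1.85 ± 0.34, DESeq2 adjusted p = 2.91e-15).

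Cytochromes P450 are heme enzymes, and as a family they went both ways. Of 57 tested, 8 were higher and 6 lower without overlap, and DESeq2 called 2 higher and 5 lower, or 4 and 1 with the near-identical libraries summed. Levels of cyp-33C9 stood at 54.3, 79.7 and 80.04 CPM at 2 µM against 22.5, 22.1 and 21.96 CPM at 20 µM (log2 change 1.68 ± 0.35, DESeq2 adjusted p = 1.97e-05). For cyp-14A4, the libraries held 42.8, 38.9 and 34.6 CPM at 2 µM and 0.102, 0.709 and 0 CPM at 20 µM (DESeq2 adjusted p = 2.55e-06). At 2 µM cyp-33C8 had 427, 69.1 and 70.5 CPM, and at 20 µM it had 9.91, 2.84 and 5.33 CPM. DESeq2 gave it no adjusted p, and 3.13e-06 with the pair summed. In cyp-33C8 the first 2 µM library was far above the others. The level of cyp-25A1 was 0.998, 0.955 and 0.270 CPM at 2 µM and 11.9, 10.4 and 1.44 CPM at 20 µM (DESeq2 adjusted p = 0.00134). Electrons reach these enzymes from a reductase encoded by emb-8. The gene emb-8 was counted at 197, 284 and 285 CPM at 2 µM and 103, 98.7 and 85.3 CPM at 20 µM (log2 change 1.42 ± 0.36, DESeq2 adjusted p = 1.53e-05, 0.0117 with the pair summed).

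Transporters of the ABC class other than mrp-5 also split, with 9 of 47 tested higher and 6 lower without overlap. DESeq2 called 5 higher and 2 lower, and 0 and 1 with the pair summed. The gene mrp-2 had 0 counts at 2 µM and 2.22, 2.51 and 1.79 CPM at 20 µM (DESeq2 adjusted p = 7.33e-07, 2.34e-05 with the pair summed). Levels of haf-7 stood at 49.1, 189.6 and 196 CPM at 2 µM against 7.08, 25.04 and 30.6 CPM at 20 µM (DESeq2 adjusted p = 0.00478, 0.0794 with the pair summed). For pgp-9, the libraries held 91.7, 247 and 249.9 CPM at 2 µM and 50.8, 66.4 and 59.3 CPM at 20 µM (DESeq2 adjusted p = 0.00523, 0.108 with the pair summed).

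**Figure D3:**
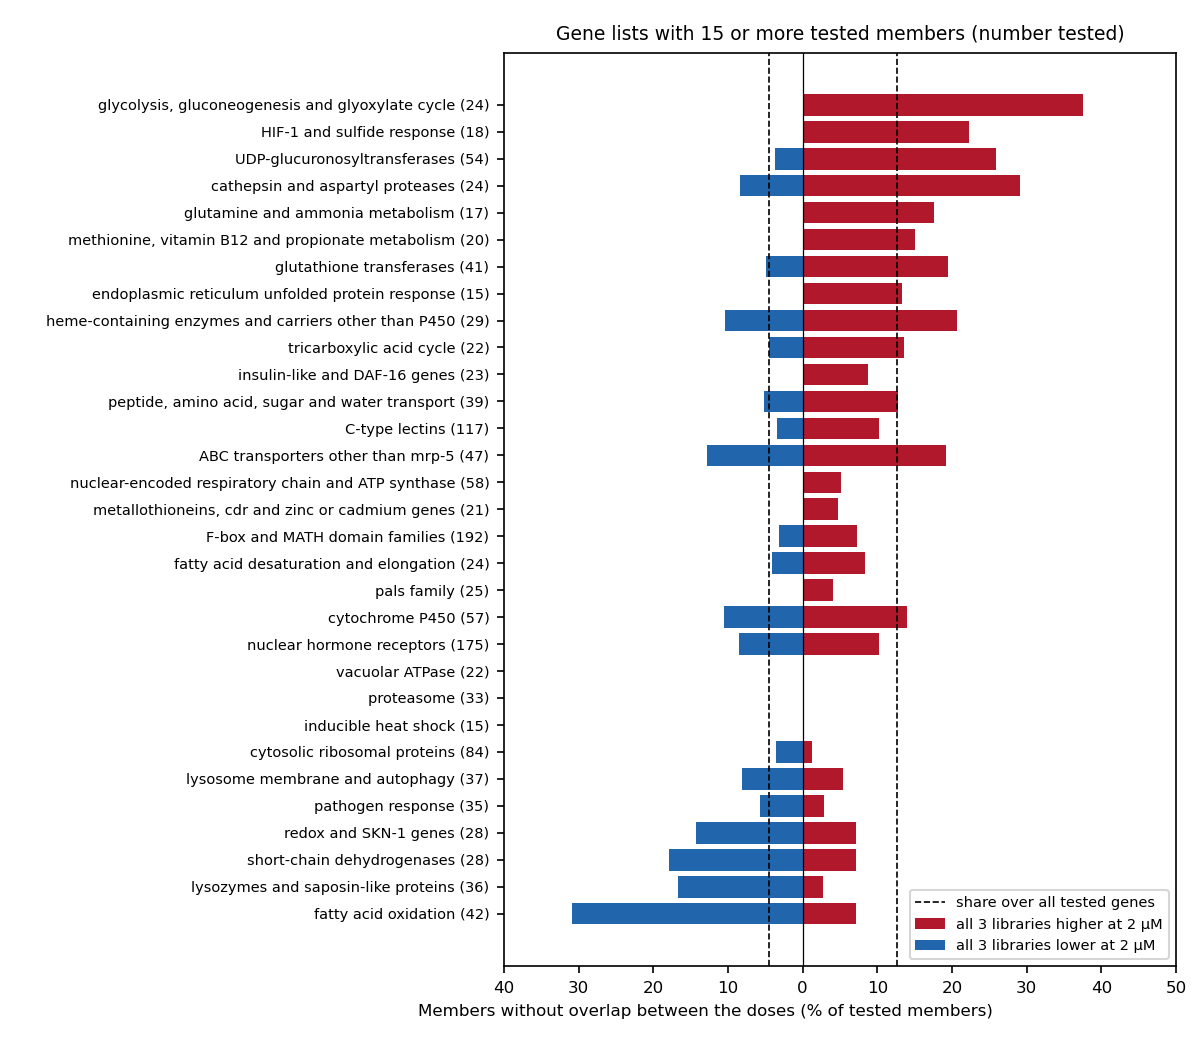
Share of the tested members of each gene list (number tested in brackets) that were higher in every library at 2 µM (red, right) or lower in every one (blue, left) than in any library at 20 µM. Dashed lines mark the shares over all tested genes, 12.7 and 4.46%. Glycolysis (9 of 24) and cathepsin and aspartyl proteases (7 of 24) reach past the right line. Fatty acid oxidation (13 of 42) reaches past the left, while vacuolar ATPase and proteasome genes had no member without overlap. Marker lists and lists with fewer than 15 tested members, such as the pud genes, are not drawn.

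The 3 catalase genes, whose heme enzymes break down hydrogen peroxide, lie close together on chromosome II and were all lower in every library at 2 µM. At 2 µM ctl-2 had 146, 202 and 191 CPM, and at 20 µM it had 475, 553 and 517 CPM (log2 change -1.52 ± 0.39, DESeq2 adjusted p = 5.94e-07, 0.000723 with the pair summed). The level of ctl-3 was 93.1, 113.7 and 143 CPM at 2 µM and 243, 316 and 471 CPM at 20 µM (log2 change -1.56 ± 0.44, DESeq2 adjusted p = 0.00201). The gene ctl-1 was counted at 69.1, 126 and 103 CPM at 2 µM and 164, 140.4 and 208 CPM at 20 µM (log2 change -0.78 ± 0.41), which DESeq2 did not call (adjusted p = 0.168). Catalase genes are similar in sequence, and nothing says how shared reads were handled, so the split between the 3 is uncertain. Among 29 tested heme enzymes and carriers other than P450, these were the 3 lower without overlap, and 6 were higher.

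One of the higher genes was the cytochrome c gene cyc-2.2. Levels of cyc-2.2 stood at 6.50, 7.74 and 8.41 CPM at 2 µM against 0.306, 0.870 and 2.29 CPM at 20 µM (DESeq2 adjusted p = 0.0254, 0.135 with the pair summed). Heme is attached to cytochrome c by the lyase encoded by cchl-1. For cchl-1, the libraries held 79.7, 40.9 and 38.8 CPM at 2 µM and 21.4, 13.9 and 4.32 CPM at 20 µM (DESeq2 adjusted p = 0.0345, 0.0926 with the pair summed). Of the genes of heme transport, 8 of 11 were higher without overlap. At 2 µM hrg-4, a heme importer, had 79.7, 187 and 188 CPM, and at 20 µM it had 30.9, 7.85 and 17.7 CPM (DESeq2 adjusted p = 0.00152).

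Iron genes differed in direction. The ferroportin gene fpn-1.2, whose family exports iron from cells, was lower. The level of fpn-1.2 was 16.02, 26.5 and 28.6 CPM at 2 µM and 213, 81.5 and 206 CPM at 20 µM (log2 change -2.81 ± 0.50, DESeq2 adjusted p = 5.38e-07, 0.000105 with the pair summed). The gene smf-3, an importer of iron and manganese in the gut, was counted at 10.4, 15.3 and 18.3 CPM at 2 µM and 7.51, 4.32 and 6.08 CPM at 20 µM (DESeq2 adjusted p = 0.0477, 0.279 with the pair summed). Ferritin ftn-1, which stores iron, overlapped between the doses. Levels of ftn-1 stood at 2916, 255 and 251 CPM at 2 µM against 1248, 160.0 and 69.6 CPM at 20 µM, with replicate 1 the highest at either dose (edgeR adjusted p = 0.718). The cadmium-responsive gene cdr-4 was higher. For cdr-4, the libraries held 182, 197 and 190.3 CPM at 2 µM and 77.1, 43.3 and 29.4 CPM at 20 µM (DESeq2 adjusted p = 0.00348, 0.052 with the pair summed).

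**Figure D4:**
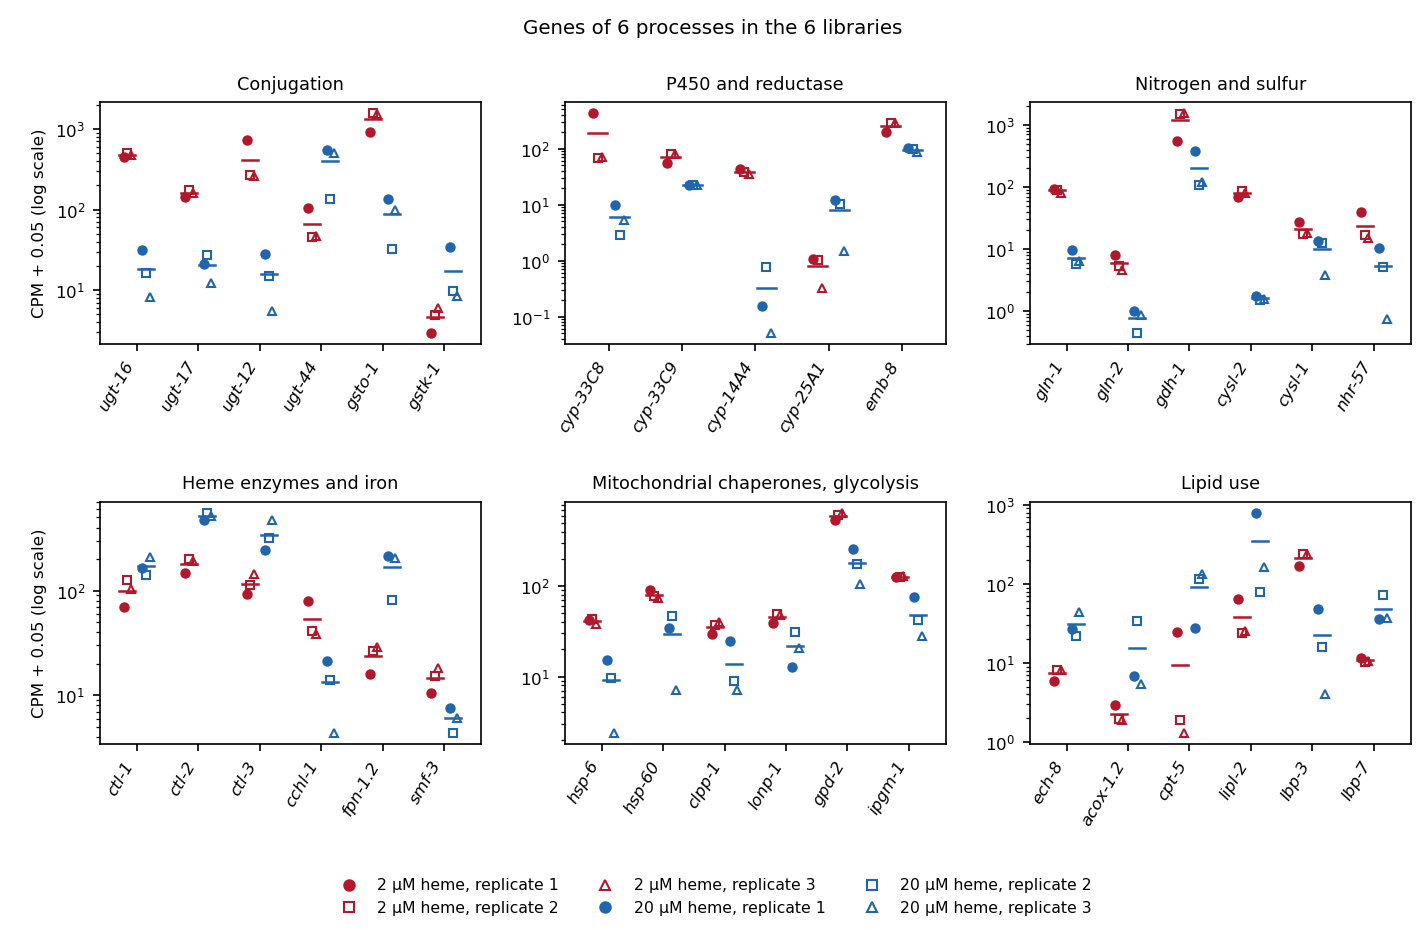
CPM + 0.05 (log scale) in each library for genes of 6 processes. Red points are 2 µM and blue points 20 µM heme, shapes are replicates and bars are means of the plotted values. The genes were picked from those named in the text. The doses do not overlap in any gene shown, while ftn-1 and lipl-1, named for the same processes, overlap and are not shown. Replicate 1 often lies away from replicates 2 and 3, as in cyp-33C8 and cpt-5.

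In nitrogen and sulfur metabolism the doses were apart in a few genes. Besides gln-1, the glutamate dehydrogenase gene gdh-1 was higher. At 2 µM gdh-1 had 555, 1468 and 1533 CPM, and at 20 µM it had 385, 106 and 121.9 CPM (log2 change 2.54 ± 0.66, DESeq2 adjusted p = 0.00306, 0.0625 with the pair summed). A second glutamine synthetase gene, gln-2, was at low levels. The level of gln-2 was 8.10, 5.25 and 4.52 CPM at 2 µM and 0.968, 0.387 and 0.815 CPM at 20 µM (DESeq2 adjusted p = 0.0343, 0.108 with the pair summed). These were the 3 of 17 tested genes of glutamine and ammonia metabolism without overlap. In the response to hypoxia and sulfide governed by the factor HIF-1, 4 of 18 tested genes were higher without overlap and DESeq2 called only cysl-2. The receptor gene nhr-57, a known HIF-1 target, and cysl-1, which activates the pathway, stood higher. The gene nhr-57 was counted at 39.7, 16.7 and 14.99 CPM at 2 µM and 10.3, 5.06 and 0.689 CPM at 20 µM (DESeq2 adjusted p = 0.134). Levels of cysl-1 stood at 26.9, 17.3 and 17.9 CPM at 2 µM against 13.5, 12.3 and 3.70 CPM at 20 µM (DESeq2 adjusted p = 0.336).

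Of 24 tested genes of glycolysis, gluconeogenesis and the glyoxylate cycle, 9 were higher at 2 µM without overlap, 0 were lower and 15 overlapped. DESeq2 called 5 higher (2 with the pair summed), edgeR called 0 (6 higher at an unadjusted p under 0.05), and the median log2 change was 0.64. For gpd-2, a glyceraldehyde-3-phosphate dehydrogenase, the libraries held 540.5, 619 and 651 CPM at 2 µM and 256, 175 and 106 CPM at 20 µM (DESeq2 adjusted p = 0.000231, 0.017 with the pair summed). At 2 µM ipgm-1, a phosphoglycerate mutase, had 127, 126 and 129 CPM, and at 20 µM it had 75.4, 42.5 and 27.98 CPM (DESeq2 adjusted p = 0.0324, 0.182 with the pair summed). The level of ldh-1, the lactate dehydrogenase gene, was 21.9, 23.9 and 23.9 CPM at 2 µM and 5.15, 3.06 and 0.125 CPM at 20 µM (DESeq2 adjusted p = 0.0219, 0.116 with the pair summed). The gluconeogenic gene pck-1 owed most of its mean to replicate 1. The gene pck-1 was counted at 81.3, 4.18 and 3.86 CPM at 2 µM and 1.197, 1.55 and 1.22 CPM at 20 µM (DESeq2 adjusted p = 0.00209).

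Of 42 tested genes that burn fatty acids, 13 were lower without overlap and 3 higher, and the median log2 change was -0.67. DESeq2 called 7 lower and 1 higher, and 2 and 1 with the near-identical libraries summed. Levels of ech-8, of the enoyl-CoA hydratase family, stood at 5.81, 8.08 and 8.06 CPM at 2 µM against 26.9, 21.7 and 43.6 CPM at 20 µM (DESeq2 adjusted p = 0.00081). For acox-1.2, an acyl-CoA oxidase of peroxisomes, the libraries held 2.84, 1.88 and 1.87 CPM at 2 µM and 6.699, 34.4 and 5.33 CPM at 20 µM (DESeq2 adjusted p = 0.00323). At 2 µM cpt-5, of the carnitine palmitoyltransferase family, had 24.8, 1.84 and 1.25 CPM, and at 20 µM it had 27.6, 113.9 and 135 CPM (DESeq2 adjusted p = 0.0272, 0.129 with the pair summed). The doses came close to touching in cpt-5, in replicate 1 of each.

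Lipid handling proteins differed by gene. The level of lipl-2, a lysosomal lipase, was 65.1, 23.6 and 25.4 CPM at 2 µM and 792, 79.96 and 162 CPM at 20 µM (DESeq2 adjusted p = 0.0033, 0.0514 with the pair summed). The gene lipl-1, a related lipase, was counted at 75.4, 20.7 and 19.4 CPM at 2 µM and 3049, 55.5 and 774 CPM at 20 µM (DESeq2 adjusted p = 0.000161), and the doses overlapped. Without replicate 1 of 20 µM, the log2 change in edgeR moved from -5.07 to -3.43 for lipl-1 and from -3.18 to -1.67 for lipl-2. Fatty acid binding proteins carry lipids in the cell and body fluid. The gene lbp-7 was lower at 2 µM in every library. Levels of lbp-7 stood at 11.4, 10.1 and 10.52 CPM at 2 µM against 36.2, 71.6 and 36.4 CPM at 20 µM (DESeq2 adjusted p = 1.38e-06). Both lbp-3 and lbp-4 were higher. For lbp-3, the libraries held 167, 240.3 and 238 CPM at 2 µM and 47.9, 15.8 and 4.01 CPM at 20 µM (DESeq2 adjusted p = 0.00152). At 2 µM lbp-4 had 70.6, 20.5 and 19.9 CPM, and at 20 µM it had 5.53, 2.51 and 3.60 CPM (DESeq2 adjusted p = 6.08e-05).

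Mitochondrial chaperones and proteases stood higher in 4 of 9 tested genes of the mitochondrial unfolded protein response, of which DESeq2 called 1 (0 with the pair summed). The level of hsp-6, the mitochondrial HSP70, was 42.3, 42.9 and 38.2 CPM at 2 µM and 15.3, 9.65 and 2.32 CPM at 20 µM (log2 change 2.18 ± 0.63, DESeq2 adjusted p = 0.0176, 0.103 with the pair summed). The gene hsp-60, the partner chaperonin, was counted at 91.1, 78.1 and 73.7 CPM at 2 µM and 34.2, 47.01 and 6.96 CPM at 20 µM (DESeq2 adjusted p = 0.184). The proteases clpp-1 and lonp-1 were the other two. Levels of clpp-1 stood at 29.2, 37.5 and 40.6 CPM at 2 µM against 24.8, 8.81 and 7.08 CPM at 20 µM (DESeq2 adjusted p = 0.146). For lonp-1, the libraries held 39.3, 48.9 and 47.5 CPM at 2 µM and 12.8, 31.3 and 20.7 CPM at 20 µM (DESeq2 adjusted p = 0.13). Large complexes gave few such genes: 3 of 58 nuclear-encoded genes of the respiratory chain and ATP synthase were higher, and 0 of 22 vacuolar ATPase and 0 of 33 proteasome genes were without overlap. DESeq2 called 0 genes of these 3 groups, with or without the pair summed, and so did edgeR, with 1 respiratory chain gene higher at an unadjusted p under 0.05. The median log2 change was 0.46 for respiratory chain, 0.60 for vacuolar ATPase and 0.042 for proteasome genes, against 0.12 over all genes. Respiratory chain genes took 1.02, 1.16 and 1.15% of counts at 2 µM and 0.587, 0.830 and 0.360% at 20 µM. Vacuolar ATPase genes took 0.507, 0.842 and 0.838% at 2 µM and 0.356, 0.345 and 0.183% at 20 µM. As shares of all counts neither pair of ranges overlapped, while those of the proteasome did. Ribosomal RNA is part of these totals and took 35.3 and 41.97% in replicates 2 and 3 of 20 µM, which lowers every other share there. The gaps between these ranges therefore do not show a difference in the genes themselves. Without replicate 1 of 20 µM DESeq2 called 12 respiratory chain and 14 vacuolar ATPase genes higher, in a comparison where it called 14.3% of all genes higher and 8.94% lower.

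Cathepsin and aspartyl proteases made up 17.8, 14.2 and 13.9% of counts at 2 µM and 13.03, 7.69 and 5.89% at 20 µM. Of 24 tested, 7 were higher and 2 lower without overlap, and DESeq2 called 2 higher and 3 lower (3 and 1 with the pair summed). At 2 µM asp-8, an aspartyl protease, had 2006, 1638 and 1662 CPM, and at 20 µM it had 381, 205 and 286 CPM (log2 change 2.61 ± 0.46, DESeq2 adjusted p = 5.53e-08). The level of cpr-8, a cathepsin B-like protease, was 1107, 712 and 709 CPM at 2 µM and 239, 58.8 and 29.2 CPM at 20 µM (DESeq2 adjusted p = 0.00787). The cathepsin B-like gene cpr-1 was lower. The gene cpr-1 was counted at 5945, 4030 and 4061 CPM at 2 µM and 32288, 8096 and 12330 CPM at 20 µM (DESeq2 adjusted p = 0.00959, 0.104 with the pair summed). So was asp-12, of the aspartyl protease family. Levels of asp-12 stood at 411, 85.0 and 81.8 CPM at 2 µM against 1436, 764 and 737 CPM at 20 µM (DESeq2 adjusted p = 0.0134, 0.108 with the pair summed).

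Antimicrobial proteins of the gut were more often lower than higher in 1 family. Of 36 tested lysozymes and saposin-like proteins, 6 were lower and 1 higher without overlap, and DESeq2 called 4 lower (3 with the pair summed). For spp-5, a pore-forming saposin-like protein, the libraries held 439, 397 and 422 CPM at 2 µM and 1319, 855 and 1799 CPM at 20 µM (DESeq2 adjusted p = 0.00081). At 2 µM ilys-4, an invertebrate-type lysozyme, had 1.59, 1.32 and 1.53 CPM, and at 20 µM it had 8.99, 7.99 and 22.2 CPM (DESeq2 adjusted p = 0.000188). The level of spp-17 was 0.209, 0 and 0 CPM at 2 µM and 4.56, 3.37 and 1.88 CPM at 20 µM (DESeq2 adjusted p = 0.00241). C-type lectins, with 12 of 117 higher and 4 lower without overlap, lay near the shares over all genes, and DESeq2 called 2 higher and 3 lower (3 and 3 with the pair summed). The most abundant of those named was clec-47. The gene clec-47 was counted at 3952, 4965 and 4635 CPM at 2 µM and 458, 325 and 594 CPM at 20 µM (log2 change 3.30 ± 0.54, DESeq2 adjusted p = 2.5e-11). Levels of clec-172 stood at 4.19, 2.47 and 3.09 CPM at 2 µM against 10.7, 20.97 and 116 CPM at 20 µM (DESeq2 adjusted p = 0.000124), lower at 2 µM. For clec-55, the libraries held 5.11, 3.86 and 4.33 CPM at 2 µM and 11.11, 11.8 and 15.5 CPM at 20 µM (DESeq2 adjusted p = 0.000539), lower with little spread.

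The pud genes, named for proteins that are more abundant in daf-2 mutants, were the group with the largest share of lower genes. All 6 lie together on chromosome V between 2322038 and 2330930, all were lower in every library at 2 µM, and DESeq2 called all 6 with and without the pair summed and without replicate 1 of 20 µM. Together they took 0.0546, 0.0175 and 0.0111% of counts at 2 µM and 12.7, 3.56 and 0.105% at 20 µM. At 2 µM pud-3 had 0.530, 0.622 and 0.0506 CPM, and at 20 µM it had 3162, 493 and 27.98 CPM (DESeq2 adjusted p = 2.95e-17). The level of pud-2.1 was 118, 42.7 and 28.1 CPM at 2 µM and 54806, 9281 and 439 CPM at 20 µM (DESeq2 adjusted p = 2.89e-10). Levels at 20 µM spanned more than 100-fold in pud-2.1, with replicate 1 the highest. The pairs pud-1.1 with pud-1.2 and pud-2.1 with pud-2.2 gave close values in every library, and as near-identical copies their reads cannot be assigned with certainty. Without replicate 1 of 20 µM, the edgeR log2 change of pud-2.1 moved from -8.42 to -6.27 and that of pud-3 from -11.57 to -9.32.

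**Figure D5:**
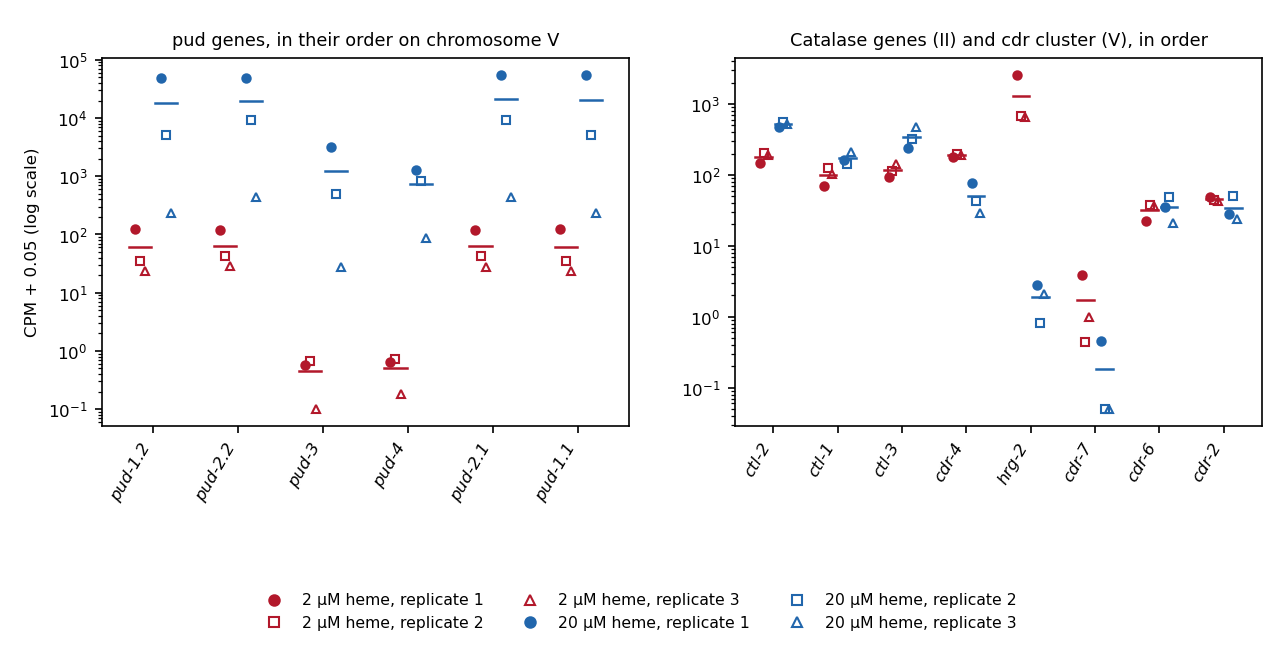
CPM + 0.05 (log scale) in each library for neighbouring genes, with the 6 pud genes of chromosome V on the left and, on the right, the 3 catalase genes of chromosome II followed by cdr-4, hrg-2 and further cdr genes of chromosome V. Red points are 2 µM and blue points 20 µM heme, shapes are replicates and bars are means of the plotted values. All 6 pud genes are lower at 2 µM, while in the cdr cluster cdr-4 and hrg-2 are higher and cdr-7, cdr-6 and cdr-2 overlap.

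Among the other widest gaps toward lower levels were neighbouring genes of chromosome V, F35E8.10 and F35E8.13. The gene F35E8.10 was counted at 0.209, 4.10 and 3.32 CPM at 2 µM and 868, 283 and 65.3 CPM at 20 µM (DESeq2 adjusted p = 1.71e-07). Levels of F35E8.13 stood at 0.197, 3.01 and 2.41 CPM at 2 µM against 676, 241 and 55.02 CPM at 20 µM (DESeq2 adjusted p = 3.81e-08). In both, the 2 µM libraries stood at 4.10 CPM or less. F45D11.15 was lower from a higher level. For F45D11.15, the libraries held 32.4, 10.1 and 8.85 CPM at 2 µM and 230.1, 562 and 175 CPM at 20 µM (DESeq2 adjusted p = 1.99e-06).

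The rest of that set included genes known from pharyngeal glands. At 2 µM phat-6 had 0, 2.37 and 3.04 CPM, and at 20 µM it had 85.3, 58.4 and 60.2 CPM (DESeq2 adjusted p = 0.00319). RefSeq names C49G7.3 phat-7. The level of C49G7.3 was 0, 5.196 and 5.04 CPM at 2 µM and 778, 129 and 40.5 CPM at 20 µM (DESeq2 adjusted p = 0.0017). The gene phat-2 had 0 counts at 2 µM and 3.11, 188 and 2.73 CPM at 20 µM. The genes pqn-75, F41G3.10, scl-24 and ZK596.1 were lower as well, from at most 2.46 CPM at 2 µM. Of 19 tested pharynx markers, 10 were lower without overlap and 0 higher, the marker shares given above differed in the same direction, and their part in these results was not tested.

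Regulators with a clear gap included daf-16, the FOXO factor of insulin signalling. The gene daf-16 was counted at 43.4, 40.9 and 39.3 CPM at 2 µM and 12.05, 16.3 and 13.2 CPM at 20 µM (log2 change 1.57 ± 0.35, DESeq2 adjusted p = 4.93e-06, 0.00382 with the pair summed). Among 175 tested nuclear hormone receptors, 18 were higher and 15 lower without overlap, and DESeq2 called 7 and 5 (3 and 2 with the pair summed). Levels of nhr-115 stood at 107, 47.3 and 42.5 CPM at 2 µM against 7.36, 9.99 and 10.03 CPM at 20 µM (DESeq2 adjusted p = 3.85e-05). For nhr-14, the libraries held 27.2, 21.6 and 21.9 CPM at 2 µM and 5.4, 3.45 and 0.909 CPM at 20 µM (DESeq2 adjusted p = 0.00693). At 2 µM nhr-5 had 0.825, 1.37 and 1.23 CPM, and at 20 µM it had 2.57, 6.28 and 17.2 CPM (DESeq2 adjusted p = 0.00152), lower in every library. The water and glycerol channel gene aqp-7 was higher. The level of aqp-7 was 36.04, 31.1 and 25.9 CPM at 2 µM and 2.55, 0.161 and 0 CPM at 20 µM (DESeq2 adjusted p = 0.00374).

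Yolk and heat shock genes followed libraries and not the dose. The 6 vitellogenins, yolk proteins made by the intestine, took 1.84, 13.9 and 14.4% of counts at 2 µM and 18.2, 0.0969 and 18.1% at 20 µM. The gene vit-2 was counted at 14332, 84281 and 89942 CPM at 2 µM and 164809, 457 and 220596 CPM at 20 µM, with replicate 2 of 20 µM far below the rest (edgeR adjusted p = 0.811). Inducible heat shock genes took 1.75% of counts in replicate 1 at 2 µM and 2.55% in replicate 1 at 20 µM, against 0.0346 to 0.118% in the other 4 libraries. Levels of F44E5.4, an HSP70-family gene, stood at 1370, 5.196 and 3.25 CPM at 2 µM against 7768, 7.69 and 9.56 CPM at 20 µM (edgeR adjusted p = 0.735). None of 15 tested heat shock genes and none of 6 vitellogenins was without overlap.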

How the data were processed

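The authors deposited 1 table with raw counts per gene and, per the file headers, FPKM values that the authors computed from them; the FPKM values entered no comparison. Bowtie 0.12.2 and genome build WBcel235 are named in the submitters' processing notes, and how reads were assigned to genes, with or without strand, is not given in the sources used here. Positions and annotations are those of RefSeq for WBcel235, to which 21714 of 21776 genes were matched by identifier.

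Counts were filtered with filterByExpr, scaled by TMM and tested with edgeR 4.0.16 (R 4.3.3, quasi-likelihood test, 1 coefficient per dose over all 9 libraries, Benjamini-Hochberg adjustment over 13434 genes, threshold 0.05). Changes are 2 µM against 20 µM on the log2 scale with the SE. DESeq2 1.42.0 and limma 3.58.1 (limma-voom with sample weights) were alternatives, beside DESeq2 size factors, other filters, the 6 libraries alone, removal of 17 ribosomal RNA genes, a replicate block, leaving out each library, and summing replicates 2 and 3 of 2 µM. DESeq2 gave no adjusted p for 913 genes. DESeq2 with that sum, and without replicate 1 of 20 µM, were added after the data were seen. Without overlap means that all 3 libraries of 1 dose had a higher CPM than all 3 of the other. A dose with 0 counts has a floor of 3 counts over the group, which covers counting error only. The scripts were tested on simulated data.

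The rule for named genes took every gene called, the 12 widest gaps between the doses in each direction among genes with a mean of at least 10 CPM at either dose, and, of each list described, at most 4 members of smallest p. The genes ctl-1, pud-1.1, pud-1.2 and ges-1 and those under other observations were named after their values were seen. Members and lists were chosen with earlier results of these data known.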

Additional observations from a re-analysis of the deposited data

How the results depend on the processing

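Against 10 genes called by edgeR, the count was 933 with DESeq2, 253 with limma-voom, 18 with no filter on low counts and 26 with a filter of 10 CPM. It was 0 with the 6 libraries alone (1035 at an unadjusted p under 0.05), 0 with replicates 2 and 3 of 2 µM summed (1341) and 2 when replicate 1 of 20 µM was omitted as well. Chosen after the data were seen, DESeq2 called 623 with that sum and 3025 without replicate 1 of 20 µM. With 1 library left out, 2642 to 5851 genes were without overlap, against 2301. Fewer libraries separate more easily, so a rise follows from the definition and these counts are not comparable. Leaving out 1 library gave 0 to 210 edgeR calls. The 0 came without replicate 2 or 3 of 2 µM or replicate 2 of 20 µM (1308, 1325 and 1823 genes at an unadjusted p under 0.05) and the 210 without replicate 1 of 20 µM, where the median log2 change of all genes was 0.40. The cause was not tested.

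The replicate block left 2 calls, 1 of them among the 10. Same-numbered libraries of 2 and 20 µM shared deviations with r = 0.27, -0.0082 and 0.30. Between 2 and 400 µM r was 0.21, 0.013 and 0.26, and between 20 and 400 µM 0.25, -0.057 and 0.37. Replicates 1 and 3 thus had a positive r in each pair of doses. The labels do not say that the numbers pair libraries, so the main fit did not take them as pairs. Replicate 2 of 2 µM correlated best with replicate 3 of 20 µM. It is near-identical to replicate 3 of 2 µM, so its own r cannot decide on pairing.

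Genes were mostly named for a call, a wide gap or a small p in these same libraries, which largely fixes their direction in advance. Of 110 named genes followed through the alternatives, 106 kept the direction of their log2 change under all of them. The others were ftn-1 (-0.94 without replicate 1 of 2 µM to 3.31 without replicate 1 of 20 µM, 3.79 with replicates 2 and 3 of 2 µM summed too), F44E5.4 (-9.24 without replicate 1 of 2 µM to 5.73 without replicate 1 of 20 µM, 6.31 with the sum too), vit-2 (2.11 with limma-voom) and cdr-6 (0.11 with limma-voom, -0.38 to 0.18 with 1 library left out). The medians of 21 of 52 lists kept their sign. At a coefficient of variation of 0.961 among libraries, the called genes differed by at least 3.62 on the log2 scale. A floor of 3 counts per library came to 0.0369 to 0.0940 CPM, which limits genes near that level.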

Other observations

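The genes in this section were chosen after their values were seen, so they are given as values only. Values of 5 genes chosen around copper handling come first. For cuc-1, the ATOX1-like copper chaperone, the libraries held 231, 93.2 and 93.0 CPM at 2 µM and 17.02, 17.9 and 3.60 CPM at 20 µM (DESeq2 adjusted p = 2.63e-05, 0.000382 with the near-identical libraries summed). RefSeq names F58G6.9 chca-1, a copper transporter gene of the intestine and hypodermis. At 2 µM F58G6.9 had 642, 387 and 378 CPM, and at 20 µM it had 84.4, 23.6 and 9.53 CPM (DESeq2 adjusted p = 0.000267). Its neighbours on chromosome IV stood higher too. The level of F58G6.3 was 53.0, 103 and 102 CPM at 2 µM and 10.3, 12.2 and 1.72 CPM at 20 µM (DESeq2 adjusted p = 0.000246). The gene F58G6.7 was counted at 93.8, 63.5 and 56.7 CPM at 2 µM and 16.2, 7.86 and 0.783 CPM at 20 µM (DESeq2 adjusted p = 0.00855). The doses did not overlap in these 4 genes. The copper-transporting ATPase gene cua-1 overlapped. Levels of cua-1 stood at 23.8, 38.5 and 40.1 CPM at 2 µM against 17.2, 32.9 and 16.5 CPM at 20 µM (DESeq2 adjusted p = 0.54).

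Of 9 genes of the prohibitin complex and of ubiquinone synthesis, 6 were higher without overlap and 0 lower. For coq-1, which makes the ubiquinone side chain, the libraries held 83.9, 44.6 and 40.3 CPM at 2 µM and 12.5, 10.1 and 3.89 CPM at 20 µM (DESeq2 adjusted p = 0.00013). At 2 µM phb-2 had 78.9, 56.0 and 59.2 CPM, and at 20 µM it had 19.5, 22.6 and 7.93 CPM (DESeq2 adjusted p = 0.00093). The level of phb-1 was 69.2, 80.2 and 86.1 CPM at 2 µM and 28.5, 38.8 and 14.2 CPM at 20 µM (DESeq2 adjusted p = 0.00572, 0.0892 with the pair summed).

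The heme gene hrg-2 lies between cdr-4 and cdr-7 on chromosome V at 12409415 to 12410513. The gene hrg-2 was counted at 2587, 678 and 662 CPM at 2 µM and 2.73, 0.774 and 2.07 CPM at 20 µM (DESeq2 adjusted p = 2.5e-11). The gene cdr-4 was higher with it, while the next genes overlapped between the doses. Levels of cdr-6 stood at 22.5, 38.1 and 36.6 CPM at 2 µM against 35.4, 49.5 and 20.6 CPM at 20 µM. For cdr-2, the libraries held 49.5, 44.8 and 42.5 CPM at 2 µM and 28.1, 50.3 and 23.97 CPM at 20 µM. The cadmium-responsive gene cdr-1 lies between F35E8.10 and F35E8.13, which were lower, and overlapped. At 2 µM cdr-1 had 48.6, 36.7 and 37.9 CPM, and at 20 µM it had 61.9, 4.80 and 0.783 CPM.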
